A study of Homo sapiens with 8 samples.

Results

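The PI3K-like kinases mTOR, ATM, ATR, DNA-PKcs (gene PRKDC), SMG1 and TRRAP, and the subunits TELO2, TTI1 and TTI2 of their TTT chaperone, were followed through a selective ribosome profiling experiment. These 9 genes were taken by name, as the family and its chaperone, from 60664 gene identifiers, and all 9 were counted in every library and passed the filter on low counts in every comparison. Ribosome-protected fragments (RPFs) had been sequenced from the human osteosarcoma line U-2 OS, once from all ribosomes (input) and once from ribosomes recovered through a tagged chaperone (pulldown), a design that asks which nascent chains TRiC, a chaperonin, and prefoldin (PFD), which works with it, bind during translation. In the TRiC line a HaloTag sat within a loop of the endogenous TRiC subunit CCT4, and in the PFD line it sat at the C terminus of the endogenous prefoldin subunit PFD4 (gene PFDN4). Both were knock-in lines grown from a single clone, no untagged line entered the pulldowns used here, and clone, tag and line therefore cannot be told apart. The paper names 2 sequencing systems without saying which library ran on which, so sequencing cannot be told apart from line either. Input and pulldown of each line made 4 groups, with 2 biological replicates each and 8 libraries in all. All of them shared cycloheximide at 100 µg per ml for 1 min, the amine-reactive crosslinker DSP at 2 mM for 30 min, RNase I digestion and a sucrose cushion, from whose pellet the input was set aside before the pulldown with anti-Halo beads.

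PI3K-like kinases are very large proteins, built from a long solenoid of helical repeats that ends in a kinase domain related to that of the lipid kinases. mTOR sets cell growth to nutrients and growth factors, ATM and DNA-PKcs respond to DNA double-strand breaks, ATR responds to stalled replication, and SMG1 phosphorylates UPF1 in nonsense-mediated mRNA decay. TRRAP has lost the catalytic residues and serves as a scaffold of histone acetyltransferase complexes. The TTT complex binds newly made kinases of this family and, with Hsp90 and the R2TP complex, helps them to mature and to join their partners. TRiC is a ring-shaped chaperonin that folds actin, tubulin and many WD40 repeat proteins, among them the mTOR partners Raptor (RPTOR) and mLST8, and prefoldin hands clients over to it.

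The shared end of the family is visible in the coding sequence. The catalytic loop was located by a search of the translated GENCODE coding sequences for glycine, aspartate, arginine and histidine in a row. That run of residues was found 1 time in each of mTOR, ATM, ATR, DNA-PKcs and SMG1, at residue 2337 of 2549 in mTOR, 2869 of 3056 in ATM, 2474 of 2644 in ATR, 3921 of 4128 in DNA-PKcs and 2334 of 3661 in SMG1. It was not found in TRRAP, nor in the TTT subunits. In ATM, ATR, mTOR and DNA-PKcs the loop is translated near the end of the open reading frame, whereas in SMG1 a much longer stretch follows it. The 30 bases that start with these codons are shown for 4 kinases because they mark where on each transcript the kinase domain is made, with the codons of the 4 residues in capitals and each sequence read 5′ to 3′ on the coding strand of hg38. They lie at chr11:108347299-108347328 (plus strand) in ATM, chr16:18838606-18838635 (minus strand) in SMG1 and chr3:142459012-142459041 (minus strand) in ATR. In MTOR (minus strand) the run crosses an exon junction, from chr1:11117004-11117011 to chr1:11115447-11115468.
ATM: GGTGATAGACATgtacagaatatcttgata
SMG1: GGAGACAGACATctggataatgttcttata
ATR: GGAGACCGTCATggtgaaaatattctcttt
MTOR: GGAGATAGACACccatccaacctgatgctg
Between pairs of these runs, 13 (ATR and MTOR) to 20 (ATM and SMG1, SMG1 and ATR) of the 30 bases were the same.

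SMG1 alone among the 9 genes has extensive near-identical copies, which bears on its counts because the authors kept only uniquely aligned reads. Of 9156 windows of 30 bases that lie within SMG1 coding exons, 2544 (27.8%) occur more than 1 time in hg38, against 0.746% in ATM, 0.192% in PRKDC and 0% in the other 6 genes. All of these SMG1 windows lie within residues 1 to 1500, with 823 in the first 500 residues, 934 in the next 500 and 787 in the next. The most frequent of them starts at residue 433 and occurs in 8 places, in SMG1 at chr16:18879687-18879716 (minus strand) and in the 7 pseudogenes SMG1P1 to SMG1P7 on the same chromosome, for example in SMG1P1 at chr16:22471631-22471660 (plus strand) and in SMG1P7 at chr16:70241228-70241257 (minus strand).
SMG1 and its 7 pseudogenes: ctgtacagagtaatgagatgtgtgacggct
An RPF that falls wholly within such a window has no unique place, so the SMG1 values given here leave out part of the first 1500 residues and understate its level per coding length. The 7 pseudogenes together held between 42 and 261 counts per library, or 2.37% to 7.05% of the SMG1 count in the same library.

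**Figure D1:**
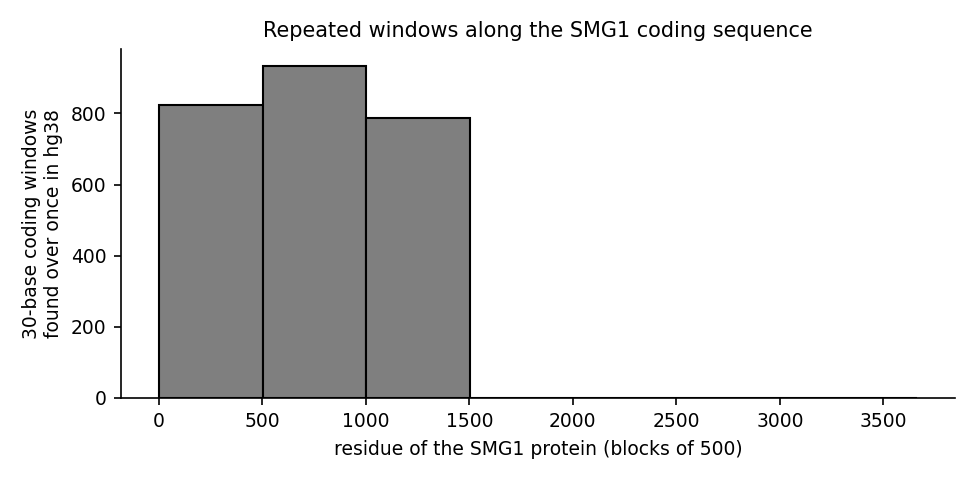
The number of 30-base windows within SMG1 coding exons that occur more than 1 time in hg38 is plotted against the residue of the SMG1 protein, in blocks of 500 residues (the last block is shorter). The first 3 blocks hold 823, 934 and 787 such windows and the remaining blocks hold 0.

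The libraries held between 9523128 and 32637658 counts, with PFD pulldown replicate 1 the smallest and TRiC pulldown replicate 1 the largest. Replicates correlated across genes at 0.9937 in TRiC input, 0.9905 in TRiC pulldown, 0.9676 in PFD input and 0.8857 in PFD pulldown (Pearson, on log2 CPM, the count scaled to a fixed library total), and the common dispersion estimated by edgeR was 0.0153 in the TRiC line and 0.331 in the PFD line. Of 8 mesenchymal and bone markers, 6 had at least 100 counts in every library, while COL1A2 had 1 to 66 counts and ALPL had 62 to 95 counts in the TRiC line and 358 to 811 in the PFD line. Of 5 epithelial markers, KRT8 and KRT18 passed 100 counts in every library, and of 4 blood markers none did, with CD3E and HBB at 0 throughout. Summed mesenchymal markers were at 8670 to 10200 CPM in the TRiC line and 20400 to 25300 CPM in the PFD line, a gap that lay largely in FN1, at 1688 to 1930 CPM in the TRiC line and 11730 to 15150 CPM in the PFD line. Summed epithelial markers were at 127 to 152 CPM and 348 to 402 CPM. Their part in the differences between lines was not tested. CCT4 was at 325 and 340 CPM in TRiC input and 881 and 870 CPM in PFD input, and PFDN4 was at 40.1 and 43.5 CPM in TRiC input and 11.8 and 9.26 CPM in PFD input, so that each tagged gene was the lower in the line that carries its tag.

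PRKDC had the highest level of the 9 genes in every library. DNA-PKcs is known as an unusually abundant nuclear kinase in human cells, which keeps Ku-bound DNA ends together for end joining. Levels are given as CPM (with totals scaled by TMM factors over all 8 libraries) per kilobase of coding sequence, a measure that does not separate more mRNA from more ribosomes on each mRNA. PRKDC stood at 148 and 155 in TRiC input, 143 and 152 in TRiC pulldown, 148 and 134 in PFD input and 137 and 156 in PFD pulldown. Pulldown and input overlapped in each line, and in each group 91.7% to 95.2% of coding genes with counts were lower. The other 8 genes lay between 7.45 and 54.5. In TRiC input the order below PRKDC was TTI1 (28.8 ± 0.421, mean ± SD, n = 2), TRRAP (25.1 ± 1.08), MTOR (24.4 ± 1.47), TTI2 (22.7 ± 0.866), TELO2 (20.7 ± 1.23), ATM (16.4 ± 1.92), ATR (10.3 ± 0.609) and SMG1 (7.95 ± 0.698). Of these neighbours only TRRAP and MTOR overlapped, and their means also lay apart by less than either SD. In PFD input TELO2 came next after PRKDC at 42.3 ± 0.873, followed by TTI1 (26.9 ± 5.53), TRRAP (22.4 ± 0.631), TTI2 (19.1 ± 3.97), MTOR (18.4 ± 3.79), ATM (14.5 ± 0.295), ATR (11.3 ± 0.622) and SMG1 (10.6 ± 2.87). TTI2 and MTOR overlapped there, as did ATR and SMG1, and TTI1 and TRRAP, like TRRAP and TTI2, lay apart by less than the larger SD of the pair. In both inputs the last place of SMG1 rests on counts that leave out reads from its repeated windows, 27.8% of those examined. The 6 kinases together took 0.239% to 0.298% of all counts in a library, and the 3 TTT subunits 0.0176% to 0.0248%.

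**Figure D2:**
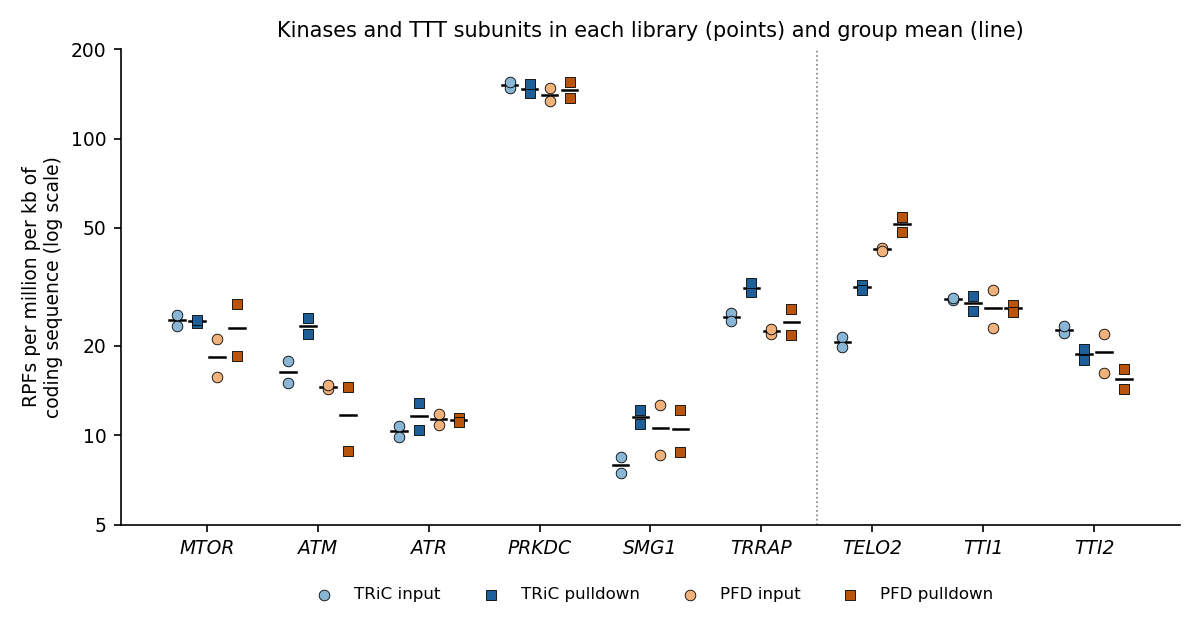
CPM per kilobase of coding sequence (log scale) are plotted for each of the 9 genes, with circles for input and squares for pulldown libraries, blue for the TRiC line and orange for the PFD line, and a line at each group mean of 2 replicates. PRKDC lies between 134 and 156 in all 8 libraries, while TELO2 moves from 19.8 and 21.5 in TRiC input to above 41 in all PFD libraries.

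In the TRiC pulldown, RPFs of ATM, SMG1, TRRAP and TELO2 rose over input, by 1.26- to 1.53-fold, whereas those of MTOR, PRKDC, ATR, TTI1 and TTI2 did not pass the test. Of the 6 kinases 3, and of the 3 TTT subunits 1, were called higher and none was called lower; differences between members were not tested (edgeR quasi-likelihood test, Benjamini-Hochberg adjusted p under 0.05 over 17934 genes). Over all genes tested, 19.2% were called in either direction, 8.64% higher and 10.6% lower, that is 1550 and 1894 genes. With library totals in place of TMM they were 1801 and 1265, and with cyclic loess 1630 and 1433, and the same 4 of the 9 genes were called. The median log2 fold change was 0.18 over the 9 genes and -0.0032 over all genes.

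ATM, the double-strand break kinase, was at 15.1 and 17.8 CPM per kb in TRiC input and 21.9 and 24.9 in TRiC pulldown, with both pulldown libraries above both inputs. Its log2 fold change was 0.51 (SE 0.0906, 95% interval 0.32 to 0.70, n = 2 and 2, edgeR adjusted p = 0.000966). SMG1, the kinase of nonsense-mediated decay, was at 7.45 and 8.44 in input and 10.9 and 12.2 in pulldown. It rose by 0.54 (SE 0.0914, 95% interval 0.35 to 0.73, edgeR adjusted p = 0.000664), again without overlap. Reads from the repeated windows of SMG1, all within its first 1500 residues, are missing from input and pulldown alike. The value may therefore not stand for the whole coding sequence. With the counts of the 7 SMG1 pseudogenes added, chosen after seeing the data, SMG1 was still called. The added counts are uniquely aligned reads and do not restore those missing from the repeated windows, so this setting cannot test their loss. TRRAP, the catalytically inactive scaffold, was at 25.8 and 24.3 in input and 30.3 and 32.6 in pulldown, a rise of 0.33 (SE 0.0724, 95% interval 0.18 to 0.48, edgeR adjusted p = 0.0044). Both TRRAP pulldown libraries were higher than both inputs. TELO2, the TTT subunit that links the trimer to R2TP, had the highest fold change of the 9, from 21.5 and 19.8 in input to 32.1 and 30.9 in pulldown. Its log2 fold change was 0.61 (SE 0.0935, 95% interval 0.41 to 0.81, edgeR adjusted p = 0.000303).

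The other 2 TTT subunits did not rise with TELO2. TTI1, the scaffold of the trimer, was at 28.5 and 29.1 CPM per kb in TRiC input and 29.5 and 26.2 in TRiC pulldown, and the groups overlapped (log2 fold change -0.05, 95% interval -0.23 to 0.14, edgeR adjusted p = 0.767). TTI2, the smallest subunit, was at 22.1 and 23.3 in input and 19.6 and 17.9 in pulldown. Its pulldown libraries were both the lower, with a log2 fold change of -0.27 (95% interval -0.51 to -0.04) that missed the threshold (edgeR adjusted p = 0.1). Exons of an opposite-strand gene cover 24.49% of the TTI2 exon bases, and the strand setting of the counting is not given in the sources used here, so reads of both genes may be joined in its count.

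MTOR and PRKDC gave values near 0 in the TRiC pulldown, with narrow intervals. MTOR was at 23.3 and 25.4 CPM per kb in input and 23.9 and 24.5 in pulldown, with a log2 fold change of -0.01 (95% interval -0.17 to 0.15, edgeR adjusted p = 0.939). For PRKDC it was -0.04 (95% interval -0.17 to 0.09, edgeR adjusted p = 0.699). Both intervals end below the estimates for ATM, SMG1, TRRAP and TELO2, and both values, like that of TTI1, turn positive, at up to 0.15, with library totals or cyclic loess. ATR, the replication stress kinase, was at 9.87 and 10.7 in input and 10.5 and 12.9 in pulldown, with overlapping groups and a log2 fold change of 0.18 (95% interval -0.04 to 0.39, edgeR adjusted p = 0.24). Pulldown libraries lay wholly above input for 4 of the 9 genes and wholly below for 1, while 29.3% and 31.2% of all genes tested did so.

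The 4 calls rested on the spread of the TRiC line and were modest in size. None of the 4 passed a test against a 1.5-fold change or a fit of all 8 libraries, in which the less even PFD libraries enter the spread (edgeR adjusted p = 0.135 for TELO2 to 0.567 for ATM). Over all genes these settings called 1.27% and 0.164%, against 19.2% in the main fit. Without TRiC input replicate 2, TRRAP lost its call at a log2 fold change of 0.27, against 0.33 in the main fit. Without TRiC pulldown replicate 1, ATR was at 0.31 and TTI2 at -0.35. Calls over all genes were fewer than in the main fit in the former case and more in the latter. In both fits the lone library of a group is assumed to vary like the other group.

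**Figure D3:**
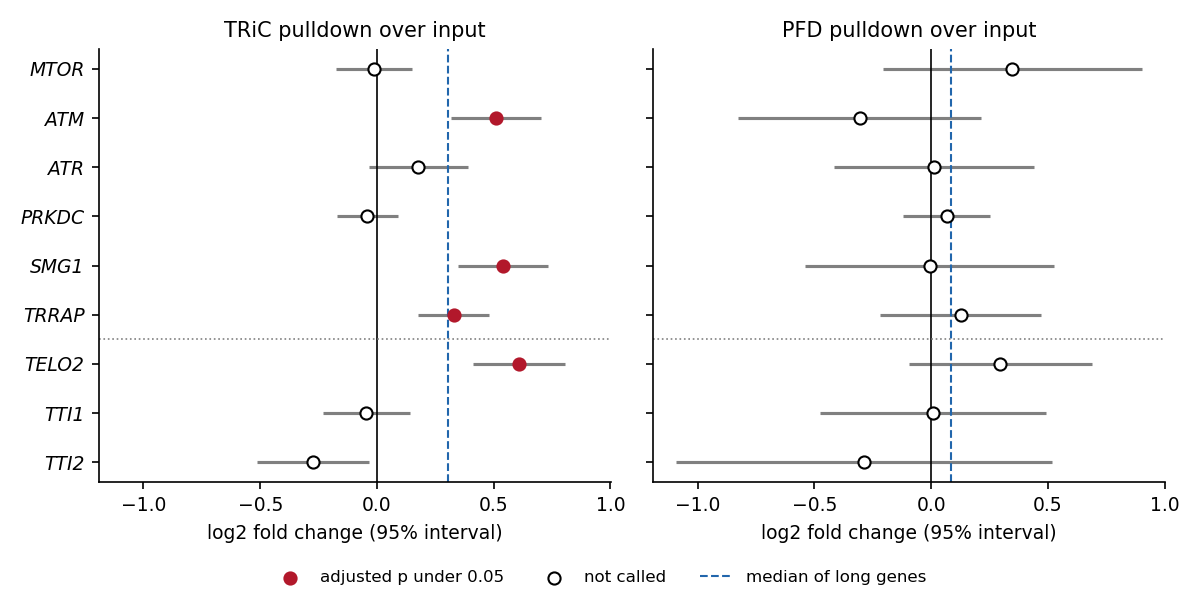
The log2 fold change of pulldown over input is plotted for each of the 9 genes with its 95% interval, for the TRiC line on the left and the PFD line on the right; filled points have an adjusted p under 0.05 and the dashed line is the median of all tested genes with a coding sequence at least as long as that of MTOR. In the TRiC line ATM, SMG1, TRRAP and TELO2 are filled, and in the PFD line no point is and the intervals are wider.

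Because the kinases have exceptionally long coding sequences, their values were set beside those of other long genes. In the TRiC pulldown the median log2 fold change rose with coding length, from -0.20 for genes under 1 kb and -0.05 for 1 to 2 kb to 0.08 for 2 to 4 kb, 0.20 from 4 kb up to the length of MTOR, and 0.31 for the 235 genes at least as long as MTOR (7647 bases). Of those 235 genes, 112 (47.7%) were called higher and 3 lower, a count that fell to 70 without TRiC input replicate 1, to 9 against a 1.5-fold change and to 5 in the fit of all 8 libraries. The 3 called of 6 kinases therefore stand beside a share of 47.7% among genes of their own length, and not only beside 8.64% over all genes. Of the 235 genes, 168 were lower than SMG1, 160 lower than ATM and 121 lower than TRRAP, whereas 72 were lower than ATR, 32 lower than MTOR and 28 lower than PRKDC. SMG1, ATM, TRRAP and ATR thus lay between the quartiles of the class (0.14 and 0.57), and MTOR and PRKDC lay below the lower one. TELO2, with a coding sequence of 2511 bases, lay above the upper quartile of its class of 2 to 4 kb (0.31), TTI1, with 3267 bases, lay within it, and TTI2, with 1524 bases, lay below the lower quartile (-0.22) of its class of 1 to 2 kb. In the PFD pulldown the class medians ran from -0.05 for the shortest to 0.08 for the 211 longest genes tested. Of these 211, none was called by edgeR in the main fit, while DESeq2 called 10 higher and 1 lower. Whether length itself contributes to the values of the kinases was not tested.

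**Figure D4:**
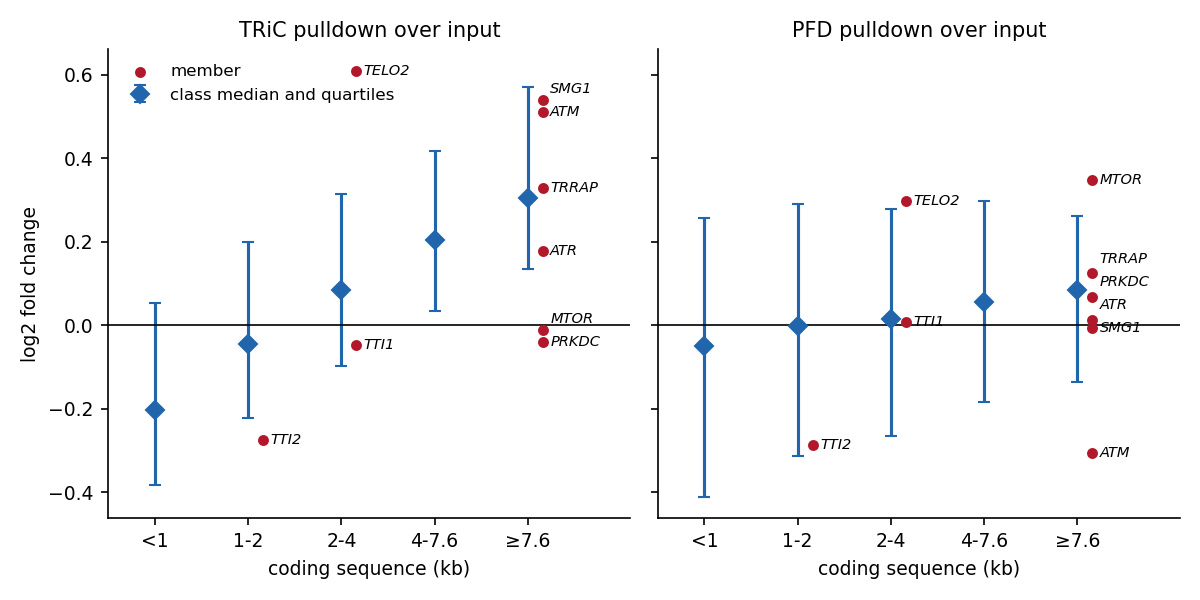
The median and quartiles of the log2 fold change (blue) are plotted for 5 classes of coding length in kilobases, with the 9 genes in red beside their own class, for the TRiC line on the left and the PFD line on the right. In the TRiC line the medians climb from -0.20 to 0.31, with MTOR and PRKDC below the lower quartile of the longest class and the other 4 kinases within its quartiles.

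In the PFD pulldown none of the 9 genes was called. With edgeR this comparison gave few calls anywhere, 34 of 14111 genes (0.241%), with 978 genes at an unadjusted p under 0.05. DESeq2 called none of the 9 either, while it called 3.9% of all genes. MTOR had the highest log2 fold change, 0.35 (95% interval -0.21 to 0.90, edgeR adjusted p = 0.873), with 21.0 and 15.7 CPM per kb in PFD input and 27.6 and 18.5 in PFD pulldown. ATM had the lowest, -0.31 (95% interval -0.83 to 0.21, edgeR adjusted p = 0.884), with 14.3 and 14.7 in input and 8.85 and 14.5 in pulldown. For both genes the groups overlapped, and PFD pulldown replicate 1 held the extreme value. TELO2 was at 42.9 and 41.7 in input and 54.5 and 48.4 in pulldown, which did not overlap, with a log2 fold change of 0.30 (95% interval -0.10 to 0.69, edgeR adjusted p = 0.82). Pulldown libraries lay wholly above input for 17.9% and wholly below for 20.3% of the genes tested in this line. The other 6 genes had log2 fold changes between -0.29 (TTI2, 95% interval -1.09 to 0.52) and 0.13 (TRRAP, 95% interval -0.22 to 0.47), and SMG1 was at -0.0065 (95% interval -0.54 to 0.53). PRKDC was measured most closely, at 0.07 (95% interval -0.12 to 0.25). Over the 13 alternatives MTOR ranged from -0.02 to 0.64 and ATM from -0.66 to -0.03. The values of 0.64 and -0.66 came without PFD pulldown replicate 2, with a single pulldown library left in the fit.

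The enrichment itself was compared between the pulldowns by an interaction test over all 8 libraries. ATM gave the highest difference of the 9 genes, with a log2 enrichment 0.82 higher for TRiC than for PFD (95% interval 0.14 to 1.496, edgeR adjusted p = 0.278), followed by SMG1 at 0.56 (95% interval -0.13 to 1.25, edgeR adjusted p = 0.414). MTOR gave the lowest, -0.33 (95% interval -0.98 to 0.31, edgeR adjusted p = 0.622). None of the 9 genes was called, nor were more than 7 of the 18855 genes tested (0.0371%), of which 2791 had an unadjusted p under 0.05. DESeq2 called none of the 9 as well, while it called 5.39% of all genes, 481 higher and 536 lower. ATM was called with no filter on low counts (0.79, edgeR adjusted p = 0.012), a setting that called 1.36% of all genes. Over the 12 alternatives ATM ranged from 0.51 to 1.24, SMG1 from 0.24 to 0.84 and MTOR from -0.58 to -0.015. The highest ATM and SMG1 values came without PFD pulldown replicate 2, which left a single PFD pulldown library in the fit.

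Between the inputs, TELO2 was the 1 gene of the 9 that differed, and by about 2-fold. It was at 21.5 and 19.8 CPM per kb in TRiC input and 42.9 and 41.7 in PFD input, a log2 difference of 1.04 (SE 0.0957, 95% interval 0.80 to 1.27, edgeR adjusted p = 0.00107). The lines differed widely in this comparison, with 40.3% of 16341 genes called and a median log2 difference of -0.11, so the share of 1 in 9 was below that of all genes. MTOR came next in order of p, with a log2 difference of -0.40 (95% interval -0.77 to -0.04, edgeR adjusted p = 0.0766), while SMG1 was at 0.42 (95% interval -0.05 to 0.90, edgeR adjusted p = 0.133). ATM, ATR, PRKDC, TRRAP, TTI1 and TTI2 had log2 differences between -0.24 and 0.13. These calls moved with the settings. DESeq2 and the fit without a filter called 4 of the 9, MTOR and SMG1 among them in both, and leaving out PFD input replicate 1 or replicate 2 gave 5 calls each, TRiC input replicate 1 gave 3 and TRiC input replicate 2 gave 2, with TELO2 called each time. Over all genes these fits called 51.5% (DESeq2), 23.7% (no filter), 58.5% and 58.7% (without PFD input replicate 1 or 2), and 20.9% and 21.2% (without TRiC input replicate 1 or 2).

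Since TELO2, TTI1 and TTI2 work as a trimer, their counts per coding length were set against each other within each library. The ratio of TTI1 to TELO2 was 1.33 and 1.47 in TRiC input and 0.921 and 0.849 in TRiC pulldown, 0.717 and 0.551 in PFD input and 0.505 and 0.537 in PFD pulldown. The ratio of TTI2 to TELO2 followed, from 1.03 and 1.18 in TRiC input to 0.61 and 0.58 in TRiC pulldown, and from 0.51 and 0.39 in PFD input to 0.262 and 0.346 in PFD pulldown. Both ratios were thus lower in pulldown than in input in both lines without overlap, and both carry the TELO2 level in the denominator, which was itself wholly higher in pulldown in both lines, as were 29.3% of all genes with TRiC and 17.9% with PFD. The ratio of TTI2 to TTI1 was 0.774 and 0.801 in TRiC input, 0.663 and 0.683 in TRiC pulldown, 0.71 and 0.708 in PFD input, and 0.518 and 0.645 in PFD pulldown. It too was lower in pulldown than in input in both lines without overlap, over a narrower range. TTI2 was itself wholly lower in the TRiC pulldown, as were 31.2% of all genes, and its count may hold reads of an opposite-strand gene. How often ratios of other genes part in this way was not computed. With 2 libraries against 2, an exact test cannot reach p under 0.05, and no test is given for these ratios.

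**Figure D5:**
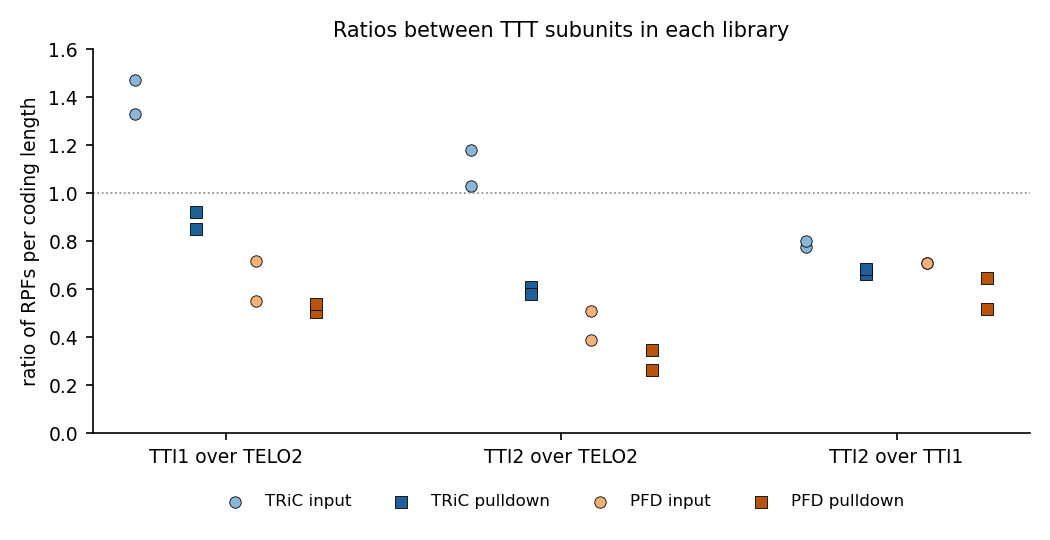
The ratio of RPFs per coding length between TTT subunits is plotted for each of the 8 libraries, with circles for input and squares for pulldown, blue for the TRiC line and orange for the PFD line; the dotted line marks equal values. Both ratios over TELO2 are highest in TRiC input (1.03 to 1.47) and lowest in PFD pulldown (0.262 to 0.537), and TTI2 over TTI1 lies between 0.518 and 0.801.

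Among the 6 R2TP and Hsp90 partners of TTT, 3 were called lower in the TRiC pulldown and none higher, against 10.6% lower and 8.64% higher over all genes, and the median log2 fold change was -0.22. RUVBL2 and RUVBL1, the paired AAA+ ATPases of R2TP, fell by 0.41 (95% interval -0.59 to -0.24, edgeR adjusted p = 0.00208) and by 0.29 (95% interval -0.47 to -0.10, edgeR adjusted p = 0.0292) on the log2 scale. HSP90AB1, the constitutive cytosolic Hsp90, fell by 0.24 (95% interval -0.37 to -0.12, edgeR adjusted p = 0.00765). RUVBL1 per TELO2 dropped from 3.32 ± 0.33 in TRiC input to 1.78 ± 0.12 in TRiC pulldown (mean ± SD of ratios per coding length, n = 2 each) but stood at 1.78 ± 0.021 in PFD input and 1.91 ± 0.099 in PFD pulldown. The denominator TELO2 was itself called higher in the TRiC pulldown (log2 fold change 0.61) and in PFD input over TRiC input (1.04). With PFD none of the 6 was called, and their median was -0.0067.

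Of 8 mTOR complex subunits tested in the TRiC pulldown, 1 was called higher and 1 lower, against 8.64% and 10.6% of all genes, and the median was -0.06. RICTOR, which defines mTORC2, rose by 0.29 (95% interval 0.12 to 0.47, edgeR adjusted p = 0.0204), and MLST8, the WD40 subunit that sits on the mTOR kinase domain, fell by 0.43 (95% interval -0.67 to -0.20, edgeR adjusted p = 0.0117). The coding sequence of RICTOR falls in the class from 4 kb to the shortest of the 6 kinases, in which 26.4% of genes were called higher with a median of 0.20. That of MLST8, with 978 bases, falls in the class under 1 kb, in which 23.6% were called lower with a median of -0.20. RPTOR, the WD40 scaffold of mTORC1, was at 0.19 (95% interval 0.00 to 0.38, edgeR adjusted p = 0.15). With PFD, RPTOR was at 0.16 and MLST8 at 0.37, with edgeR adjusted p-values of 0.97 and 0.948. Between inputs, RPTOR was higher in the PFD line by 0.95 (edgeR adjusted p = 0.00271) and MLST8 lower, at -0.99 (edgeR adjusted p = 0.0107), in a comparison that called 40.3% of all genes. The ratio of RPTOR to MTOR per coding length was 0.667 and 0.595 in TRiC input, 0.736 and 0.714 in TRiC pulldown, 1.54 and 1.71 in PFD input, and 0.849 and 2.3 in PFD pulldown. RPTOR was thus below MTOR in all TRiC libraries and above it in 3 of 4 PFD libraries.

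Upstream of mTORC1, 23 regulators were tested in the TRiC pulldown, of which 3 were called higher and 6 lower, with a median of -0.05, against 8.64% higher and 10.6% lower over all genes. DEPDC5, a long subunit of the GATOR1 brake, rose by 0.42 (edgeR adjusted p = 0.0145), as did TSC2, the GTPase-activating subunit of the tuberous sclerosis complex, by 0.41 (edgeR adjusted p = 0.00165) and FNIP1, the folliculin partner, by 0.29 (edgeR adjusted p = 0.0434). DEPDC5 and TSC2 fall in the same length class as RICTOR, and FNIP1 in that of 2 to 4 kb, where 11.9% were called higher. The 3 lowest of the called genes were subunits of Ragulator, which holds mTORC1 at the lysosome, LAMTOR2 at -0.68 (edgeR adjusted p = 0.000264), LAMTOR4 at -0.53 (edgeR adjusted p = 0.00156) and LAMTOR1 at -0.51 (edgeR adjusted p = 0.00156). Coding sequences of LAMTOR2, LAMTOR4 and LAMTOR1 are under 1 kb, a class in which 23.6% of genes were called lower with a median of -0.20. The Ragulator subunits LAMTOR3 at -0.21 and LAMTOR5 at -0.18 were not called. Of 12 mTOR kinase targets 1 was called, EIF4EBP1, the translation repressor 4E-BP1, also of the class under 1 kb, at -0.50 (edgeR adjusted p = 0.00235), and the median was 0.0025. No gene of these lists was called in the PFD pulldown, with medians of 0.16 for 7 mTOR complex subunits, 0.04 for the regulators and -0.27 for the targets.

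The partners and targets of the DNA damage kinases are to be read against 8.64% of all genes called higher and 10.6% called lower in the TRiC pulldown. Of 14 partners of ATM, ATR and DNA-PK, 1 was called in the TRiC pulldown, XRCC5 (Ku80), which fell by 0.21 (95% interval -0.34 to -0.07, edgeR adjusted p = 0.0347), beside a median of 0.12. The ratio of XRCC5 to PRKDC per coding length kept to 2.95 to 4.02 and that of XRCC6 (Ku70) to PRKDC to 1.78 to 2.24 over the 8 libraries, so both Ku subunits were made in excess of the kinase by this measure. ATRIP, the obligate partner of ATR, was at 0.914 to 1.32 of ATR, although 26.66% of its exon bases lie under same-strand exons of another gene. Of 12 targets, 3 were called lower and none higher, with a median of -0.09. Among them were H2AX, the histone variant phosphorylated at breaks, whose coding sequence is under 1 kb, at -0.61 (edgeR adjusted p = 0.000113), and TRIM28, a chromatin corepressor, at -0.35 (edgeR adjusted p = 0.00304). PFD pulldown medians were -0.10 for partners and -0.07 for targets, with none called.

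Around SMG1, 9 genes of its complex and of nonsense-mediated decay were tested in the TRiC pulldown, and SMG5, an adaptor that binds phosphorylated UPF1, was the 1 call, at 0.56 (95% interval 0.38 to 0.73, edgeR adjusted p = 0.000264), beside a median of 0.07. The SMG1 partner SMG8 stood at 3.43 ± 0.18 of SMG1 per coding length in TRiC input and 2.2 ± 0.44 in TRiC pulldown, and SMG9 at 6.1 ± 0.49 and 3.78 ± 0.4 (mean ± SD, n = 2 each). In the PFD line SMG8 stood at 2.19 ± 0.071 of SMG1 in input and 1.96 ± 0.75 in pulldown, and SMG9 at 6.45 ± 2.4 and 5.51 ± 0.23, so that SMG8 in PFD input was at the level of the TRiC pulldown. All of these ratios carry the missing SMG1 reads described above, and their denominator SMG1 was itself called higher in the TRiC pulldown. Of 20 subunits of the TRRAP complexes NuA4 and SAGA, 4 were called higher and 2 lower, with a median of -0.09. The 2 of 20 called lower are close to the 10.6% of all genes, and 8.64% of all genes were called higher. KAT2A, the SAGA acetyltransferase, rose by 0.55 (edgeR adjusted p = 0.000697), and the NuA4 subunits EPC1 and MBTD1 by 0.42 each (edgeR adjusted p = 0.0077 and 0.0261). TADA3, a SAGA adaptor, was at -0.41 (edgeR adjusted p = 0.00709) and USP22, the SAGA deubiquitinase, at -0.32 (edgeR adjusted p = 0.00469). A list of 11 genes of the PI3K and PI4K lipid kinases, which holds the regulatory subunits PIK3R1, PIK3R2 and PIK3R4 besides catalytic ones, had a median of 0.16 with none called. None of these genes was called in the PFD pulldown, with medians of 0.0011 for 9 decay genes, -0.09 for 19 NuA4 and SAGA subunits and -0.07 for 10 genes of the lipid kinase list.

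Across the 8 libraries the 6 kinases correlated unevenly with their own mean profile, and whether they share a profile was not tested. After centring log2 CPM within each line, the mean profile of the kinases correlated at 0.92 with SMG1, 0.68 with ATM, 0.67 with ATR and 0.56 with TRRAP, but at 0.32 with PRKDC and 0.12 with MTOR (Pearson, 8 libraries, each kinase being part of the mean). Among 9983 genes with enough counts, the 3 that followed this mean profile most closely were ACACA, which makes malonyl-CoA for fatty acid synthesis, at 0.98, MMS22L, a replication repair factor, at 0.97, and EPC2, a paralogue of the NuA4 subunit EPC1, at 0.97. The 8 points share lines and groups, and the values are a description.

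The 9 genes lie on GRCh38 (hg38) as follows in GENCODE release 44. MTOR (ENSG00000198793) is at chr1:11106535-11262556, ATM (ENSG00000149311) at chr11:108223044-108369102, ATR at chr3:142449007-142578733, PRKDC at chr8:47773111-47960178, SMG1 at chr16:18804860-18926408 and TRRAP at chr7:98877933-99050831. TELO2 is at chr16:1493344-1510457, TTI1 at chr20:37983007-38033461 and TTI2 at chr8:33473386-33513185. The coding sequences run from 1524 bases in TTI2 to 12384 in PRKDC, and counts cover all exons, untranslated parts included. Exons of opposite-strand genes cover 7.52% of the ATR, 5.96% of the TRRAP and 2.77% of the MTOR exon bases and under 1% in ATM, PRKDC, SMG1, TELO2 and TTI1. The lowest pooled depth among the kinases was 0.98 counts per codon, for ATR in PFD input, and the highest 26.7, for PRKDC in TRiC input.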

How the data were processed

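RPFs were measured in 8 libraries. The authors trimmed and demultiplexed the reads with an awk script, used UMI-tools for molecular identifiers, removed non-coding RNA with Bowtie2 2.4.2 and aligned to hg38 with STAR 2.7.10a, keeping unique alignments. The deposited values are raw counts per gene from STAR, in a table for each line. The annotation release and strand column are not given in the sources used here. Of 60664 identifiers, 60463 were matched to GENCODE release 44 and 201 were not.

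Pulldown and input were compared within each line in R 4.3.3 by the quasi-likelihood test of edgeR 4.0.16, without a replicate block, after filterByExpr and TMM; genes with a Benjamini-Hochberg adjusted p under 0.05 over all genes tested were called. An interaction over 8 libraries compared both enrichments, and a fit of the inputs compared the lines. The study's own analysis was made along each transcript, which gene counts cannot follow. The protocol took input and pulldown from the same pellet, but no label says that a shared replicate number marks a shared preparation, so the numbers were not used as pairs. With 2 replicates per group, p-values measure only the spread between these samples. Depth ranged from 9523128 to 32637658 counts, and replicate spread rather than counting error limits the precision. Scripts were tested on simulated data.

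The 9 genes, the lists and the tests were chosen with earlier results of these data known. Named genes of a list were those called with a mean count of at least 100, at most 3 per list and direction, plus RPTOR and MLST8. Values of 1 such gene are not reported here. Subunit pairs for ratios, markers and the length classes other than the longest were chosen outside that rule. Alternatives were DESeq2 1.42.0, a replicate block, cyclic loess with limma 3.58.1, scaling by library totals, no filter on low counts or a minimum of 100 per library, glmTreat against 1.5-fold, a single fit of all 8 libraries, and the removal of each library in turn. After seeing the data, the SMG1 pseudogene counts were added to SMG1, and the count of long genes was put through the same alternatives.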

Additional observations from a re-analysis of the deposited data

How the results depend on the processing

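The TRiC calls for ATM, SMG1, TRRAP and TELO2 held with a replicate block, DESeq2, library totals, cyclic loess and both filters. They fell to 0 against a 1.5-fold change and with all 8 libraries in one fit, settings that called 1.27% and 0.164% of all genes. SMG1 was also called with its pseudogene counts added, which do not restore the reads missing from its repeated windows. Leaving out a library gave 3 to 6 TRiC calls, 0 to 2 in the PFD pulldown, 0 to 2 in the interaction and 2 to 5 between inputs. In each comparison the highest of these counts came where the largest shares of all genes were called, so they cannot be read apart from those shares. Without a filter, 1 gene (ATM) was called in the interaction and 4 between inputs, and DESeq2 called 4 between inputs. Long genes called higher in the TRiC pulldown numbered 112, with 9 against 1.5-fold, 5 in the fit of 8 libraries, and 70 to 125 with a library left out, where the lone sample of a group is assumed to vary like the others. Input and pulldown of the same replicate number deviated together at 0.242 in the TRiC and -0.02 in the PFD line (correlation across genes). Whether the numbers mark a shared preparation is not stated. The replicate block left 4 TRiC calls and 0 PFD calls, and raised calls over all genes from 19.2% to 26.1% (TRiC) and from 0.241% to 0.95% (PFD).

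Several values changed sign, among them values near 0 and that of MTOR in the PFD pulldown, at 0.35 in the main fit. In the TRiC pulldown MTOR was at 0.00072 (DESeq2), 0.035 (library totals), 0.094 (loess), 0.053 (at least 100 counts) and -0.068 to 0.040 with a library left out; PRKDC at 0.0058 (totals), 0.15 (loess) and 0.024 (100 counts); TTI1 at 0.00098 (totals), 0.030 (loess), 0.017 (100 counts) and -0.14 to 0.045. In the PFD pulldown SMG1 was at 0.0042 (replicate block), 0.0019 (DESeq2), 0.017 (loess), 0.038 (pseudogenes added) and -0.26 to 0.27; ATR at -0.023 (totals), -0.0020 (one fit) and -0.070 to 0.072; TTI1 at -0.026 (totals), -0.00028 (no filter), -0.010 (one fit) and -0.19 to 0.21. Leaving out a library gave ranges there of -0.00053 to 0.12 for PRKDC, -0.020 to 0.64 for MTOR and -0.073 to 0.30 for TRRAP. In the interaction TTI1 was at 0.029 (totals) and -0.28 to 0.14, TTI2 at -0.0086 (no filter) and -0.22 to 0.20, and PRKDC at -0.18 to 0.019; between inputs TTI1 was at -0.34 to 0.066. The cause was not tested.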
